A study of Danio rerio with 6 samples.

Results

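To ask which genes and cell functions differ between IRF4-driven tumors with 1 mutant copy of p53 and normal thymus, the 2 libraries labelled lck-IRF4;p53+/- were set against the 2 labelled lck-mCherry. These are 4 of the 6 RNA-seq libraries of the series, chosen by label alone and not by any measured value. The tumor fish, here called p53+/- tumors, carried the human IRF4 gene and the red fluorescent marker mCherry under the zebrafish lck promoter, which is active in lymphocytes, and were heterozygous for a transactivation-dead p53 allele. The control fish, here called control thymus, carried mCherry alone. No fish was treated. Tumor cells were taken after lymphoma had become visible and were isolated by their mCherry fluorescence, whereas the labels do not state that the thymus samples were sorted. The labels give no age, strain or number of fish for these libraries, nor whether a library came from 1 fish or several, so age, site of harvest, sorting and genotype cannot be told apart, and p-values measure only the spread between these libraries. The third group, lck-IRF4 tumors without the p53 mutation (2 libraries), entered the fit to estimate the spread.

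T cells mature in the thymus from double-negative cells, which carry neither CD4 nor CD8, through double-positive cells to single-positive cells that keep 1 co-receptor. During this course the recombinases Rag1 and Rag2 join variable (V), diversity and joining (J) segments into a receptor that is either of the alpha-beta or of the gamma-delta kind. IRF4 is a transcription factor that T cells induce when their receptor is engaged, and p53 stops division or triggers death after DNA damage. In bulk RNA, fewer cells of a type and less RNA per cell cannot be told apart.

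Counts per gene and library were recovered from the mean normalized counts that the authors give for each gene, as described under the processing. Between 7242898 and 7813352 counts per library were assigned to genes, and 3 counts corresponded to 0.367 to 0.479 CPM (counts scaled to the effective library size). The 2 control libraries correlated at 0.926 in log2(CPM + 1) across genes and both tumor libraries at 0.921, against 0.815 to 0.878 between groups. The human IRF4 transgene was not among the genes analysed here. Counts are given throughout in the order control replicates 1 and 2, then tumor replicates 1 and 2. The fish gene irf4a had 749, 124, 113 and 82 counts and irf4b 1951, 309, 585 and 133. Neither was called (adjusted p = 0.15 and 0.302), and for irf4b the groups overlapped.

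Of 14122 genes tested, 345 (2.44%) passed an adjusted p of 0.05 (Benjamini-Hochberg) in edgeR's quasi-likelihood test and are termed called. Of these, 182 were higher (1.29%) and 163 lower (1.15%) in p53+/- tumors. For each of the 345 genes, both tumor libraries lay on the same side of both control libraries in CPM. That pattern alone was common, since it held upward for 3848 genes (27.2%) and downward for 3214 (22.8%). The calls were large changes: the smallest was 1.75 and the median 4.71 in absolute log2 fold change, while the median log2 fold change of all genes was 0.02. Among the genes called higher, 51 had at most 3 counts in each control library, and among those called lower, 32 had at most 3 counts in each tumor library. For such genes a fold is given only as a lower bound, against 3 counts in each library. The calls rest on both control libraries, since none of them held when either one was left out. All 345 genes kept their direction in those fits. Their separate groups largely fixed that direction in advance, so it is no further evidence. DESeq2 called 1514 genes (10.7%) in the same 6 libraries, 800 higher (5.66%) and 714 lower (5.06%), with 344 of the 345 among them. Without tumor replicate 2, edgeR called 92 higher and 28 lower.

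**Figure D1:**
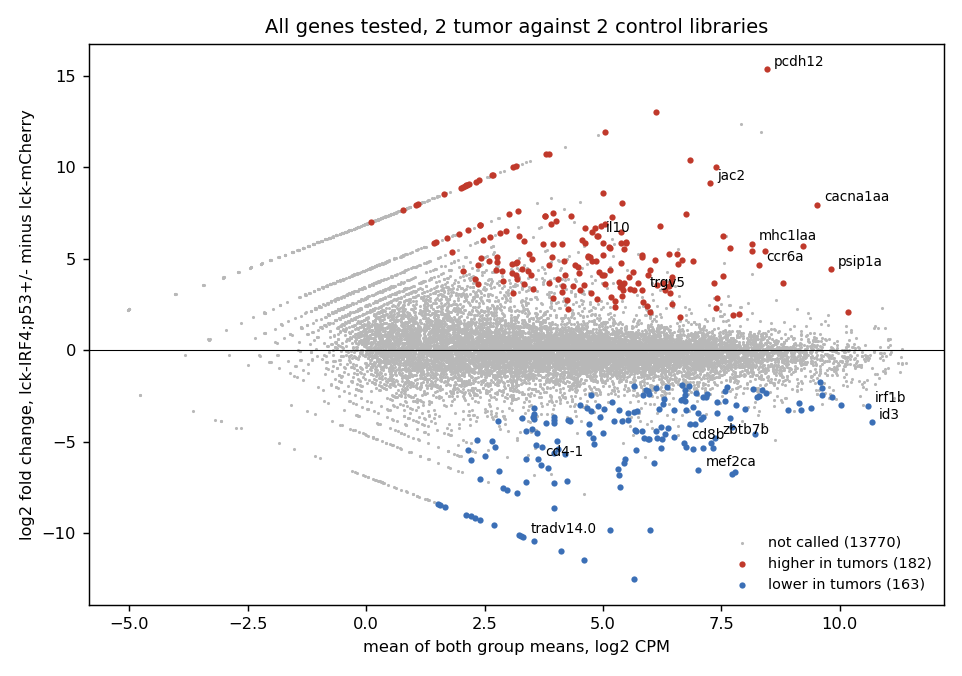
Log2 fold change of p53+/- tumors over control thymus against mean level for all genes tested with a count in the 4 libraries (7 had none). Red points are the 182 genes called higher, blue points the 163 called lower, and grey points were not called; genes at 0 in every library of a group form the straight edges, where the value depends on the small count that edgeR adds.

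The co-receptors and the alpha and delta chain segments of the T-cell receptor were lower in p53+/- tumors, while the gamma segment trgv5 was higher. Cd4-1, the co-receptor of helper T cells, had 245 and 80 counts in control thymus and 1 and 5 in the tumors, a log2 fold change of -5.98 ± 1.00 (SE, adjusted p = 0.0359). For cd8b, a chain of the co-receptor of cytotoxic T cells, the counts were 1695 and 978 against 70 and 27 (-5.07 ± 0.64, adjusted p = 0.0182). Its partner chain cd8a had 8717 and 5236 counts in control thymus and kept 1302 and 462 in the tumors (-3.27 ± 0.57, adjusted p = 0.0381). In all 3 genes both tumor libraries lay below both control libraries, with tumor replicate 2 the lower one for cd8a and cd8b. These were the 3 called genes of 9 tested in the list of double-positive stage genes, all lower. The list's median log2 fold change was -1.68, or -1.02 without control replicate 1. Each fit without 1 library applied the filter on low counts anew, so its list medians, here and below, can cover other members than the main fit. The second fish cd4 gene, cd4-2.2, had 60, 36, 27 and 11 counts and was not called (adjusted p = 0.297).

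The alpha and delta variable segments (tradv genes), which share 1 locus and resemble each other closely, so that reads of single segments are uncertain, lay lower as a family. This family, the joining and gamma segments and the interleukin receptors below were grouped by gene name after values had been seen. Summed over 62 segments, they held 2466 and 1318 counts in control thymus and 123 and 10 in the tumors, that is 361 and 210 CPM against 15.3 and 1.22 CPM. All 62 segments had a count in control replicate 1 and 61 in control replicate 2, but 33 in tumor replicate 1 and 4 in tumor replicate 2. Of 44 segments with counts enough to be tested, 8 were called, all lower (4 with the replicate block and 0 without tumor replicate 2). Over all genes 1.15% were called lower. Of the 44 segments, 34 had 3 counts or fewer in each tumor library, so that other libraries alone admitted them and their direction was largely fixed by the filter. Segment tradv14.0 had 159 and 104 counts in control thymus and 0 in both tumors, at least 53.8-fold lower, and tradv10.0.4 had 61 and 60 against 0 in both. No segment dominated the controls, where the most frequent took 6.49% of the family's counts in replicate 1 (exact 95% interval 5.55 to 7.53) and 7.89% in replicate 2 (6.49 to 9.48). In tumor replicate 1, 19 of 123 counts belonged to tradv10.0.2. In tumor replicate 2, 6 of only 10 counts belonged to tradv23.1.3. These intervals cover counting error only. The summed alpha joining segments (traj) had 158 and 145 CPM in control thymus and 46.2 and 30.8 CPM in the tumors, with 3 of 3 tested segments below both controls and 0 called by edgeR, while DESeq2 called all 3. Trdc, the constant region of the delta chain, had 3831 and 2469 counts against 721 and 162, a log2 difference of -3.12 ± 0.77 that did not pass the test (adjusted p = 0.0851).

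The summed gamma variable segments lay higher, through trgv5 in both tumors and trgv1 in 1 of them, while of the 6 segments tested 2 lay above both controls and 1 below. The sum was 40.7 and 35.1 CPM in control thymus and 169 and 181 CPM in the tumors. Trgv5 had 81 and 60 counts in control thymus and 1072 and 596 in the tumors (log2 fold change 3.27 ± 0.59, adjusted p = 0.0402), the 1 segment called, though not with the replicate block. It made up 29.1% of gamma segment counts in control replicate 1 (exact 95% interval 23.9 to 34.9) and 27.3% in control replicate 2 (21.5 to 33.7), but 79.2% in tumor replicate 1 (77.0 to 81.4). In tumor replicate 2 it held 40.2% (37.7 to 42.8), behind trgv1 with 45.0% (42.5 to 47.6). Trgv1 had 36 and 28 counts in the controls, 27 in tumor replicate 1 and 667 in tumor replicate 2, so that its groups overlapped and it was not called (adjusted p = 0.201). The gamma segment with most counts thus differed between the tumor libraries, although in replicate 2 the intervals of trgv1 and trgv5 touched.

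**Figure D2:**
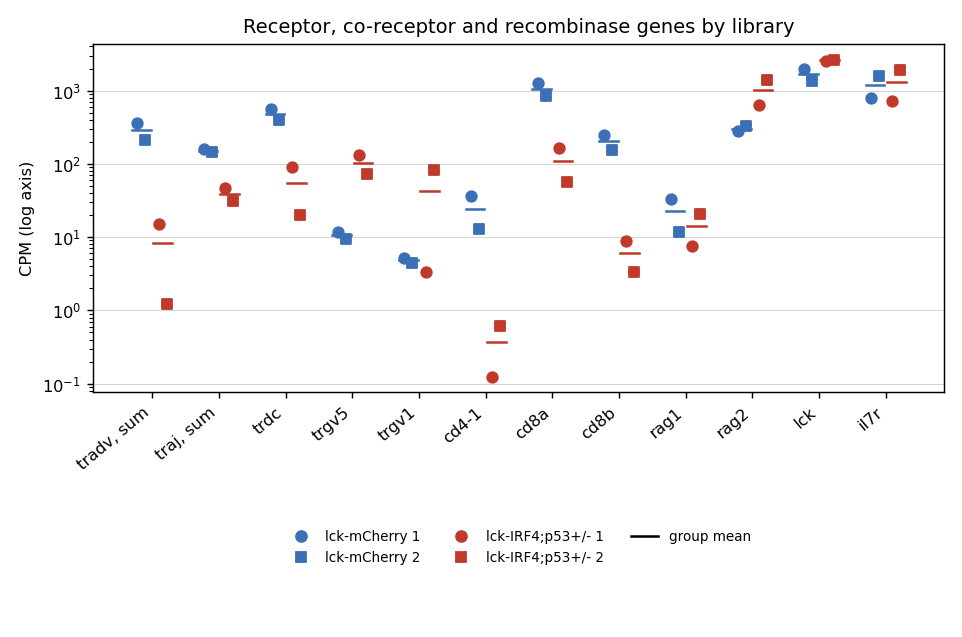
CPM (log axis) of T-cell receptor segments, co-receptors, recombinases and 2 T-cell genes in each library, with circles for replicate 1, squares for replicate 2 and a bar at the group mean. The tradv sum, trdc, cd4-1, cd8a and cd8b lie lower in both p53+/- tumors, trgv5 lies higher in both, and trgv1 is high in tumor replicate 2 alone.

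The machinery that assembles the receptor did not show a common direction. Of 15 genes of V(D)J recombination and end joining tested, none was called, and DESeq2 called 3 where it called 10.7% of all genes. Above both controls lay 2 and below both 5, where 27.2% and 22.8% of all genes did. Rag2 had 1894 and 2031 counts in control thymus and 5124 and 11527 in the tumors, with no overlap (log2 difference 1.77 ± 0.51, adjusted p = 0.121). Rag1, its partner, had 227, 73, 60 and 172 counts, with overlapping groups. Dntt, the polymerase that adds bases at the joints, had 71 and 16 counts against 0 and 2, which did not pass the test either (adjusted p = 0.0970). Both groups expressed T-cell genes throughout: the 8 T-cell markers summed to 9699 and 10801 CPM in control thymus and to 7637 and 8787 CPM in the tumors, and none of them was called. Lck, the kinase whose promoter drove the transgenes, had 13608 and 8583 counts in control thymus and 20457 and 21517 in the tumors (adjusted p = 0.386).

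Transcription factors of T-cell maturation and quiescence were among the genes that fell. Zbtb7b, which directs cells to the CD4 lineage in mice, had 1284 and 2835 counts in control thymus and 95 and 90 in p53+/- tumors (log2 fold change -4.81 ± 0.55, adjusted p = 0.018). Id3, an inhibitor of E proteins that acts downstream of the T-cell receptor, had 7489 and 31593 counts against 1936 and 1256 (-3.96 ± 0.74, adjusted p = 0.0437), with the control libraries themselves far apart. They were the 2 called genes of 18 T-lineage factors tested, whose median was -0.48 and ranged from -0.88 to -0.27 as 1 library was left out. Foxo1a, a factor of resting lymphocytes, had 1727 and 1640 counts in control thymus and 196 and 131 in the tumors (-3.67 ± 0.46, adjusted p = 0.0182). The Krüppel-like factor klf11a had 9104 and 6867 against 1313 and 840 (-3.19 ± 0.42, adjusted p = 0.0182). Both belonged to a list of 20 quiescence and antiproliferative factors, of which no other was called, and that list's median was -0.34, but 0.29 without control replicate 1.

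Further regulators fell without being stage markers. Mef2ca, a MADS-box factor whose human relative is activated in some T-cell leukemias, had 2364 and 1028 counts in control thymus and 33 and 11 in the tumors (log2 fold change -6.54 ± 0.78, adjusted p = 0.018), and it was the 1 gene called of 10 T-ALL proto-oncogenes. Its relative mef2b went the other way, with 123 and 50 counts in control thymus and 1465 and 7500 in the tumors (5.40 ± 0.86, adjusted p = 0.0306). Of myca and mycb, fish copies of the growth driver Myc, only myca was called. Myca had 1853 and 1441 counts in control thymus against 183 and 114 (-3.77 ± 0.43, adjusted p = 0.018). Mycb had 4113 and 5757 counts against 7083 and 19741, with overlapping groups in CPM and no call (adjusted p = 0.282). Irf1b, an interferon regulatory factor, had 19446 and 16679 counts in control thymus and 3256 and 2132 in the tumors (-3.05 ± 0.39, adjusted p = 0.0182), while a second gene under the same symbol, with 240 to 477 counts, was not called. Among 65 chromatin modifiers tested, 2 were called, both lower, where 2.44% of all genes were called. Of the 65, 21 lay below both controls and 5 above, where 22.8% and 27.2% of all genes did. Their median was -0.36, and DESeq2 called 2 higher and 5 lower. The genes called by edgeR were hdac7b, a histone deacetylase gene with 1123, 671, 110 and 177 counts (adjusted p = 0.0283), and setd1ba, a histone H3K4 methyltransferase gene with 334, 500, 57 and 91 (adjusted p = 0.0437).

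Signalling genes downstream of antigen and cytokine receptors lay mostly lower, but few passed the test. In the list of T-cell receptor signalling genes, 1 of 31 was called, where 2.44% of all genes were. Of the 31, 18 lay below both control libraries and 2 above, where 22.8% and 27.2% of all genes did. The median log2 fold change was -1.21, or -0.77 without control replicate 1. The called gene was prkcq, the protein kinase C theta of the receptor synapse, with 751 and 597 counts in control thymus and 209 and 145 in the tumors (-2.23 ± 0.41, adjusted p = 0.0431). Of 29 cytokine receptor and JAK-STAT genes, 14 lay below and 4 above. Their median was -1.04, or -1.67 without tumor replicate 1 and -0.72 without tumor replicate 2. Cish, a suppressor of cytokine signalling, had 535 and 1355 counts against 46 and 36 (-4.86 ± 0.62, adjusted p = 0.0182). Among 18 interleukin receptor genes, il20ra had 248 and 755 counts in control thymus and 3 and 11 in the tumors (-6.48 ± 0.96, adjusted p = 0.0256). Il23r, which drives T cells that make interleukin 17, had 983 and 363 against 30 and 6 (-5.49 ± 0.88, adjusted p = 0.0306), and il17ra1a, a receptor for that cytokine, had 1490 and 328 against 64 and 15 (-4.78 ± 0.94, adjusted p = 0.0482). The 1 interleukin receptor gene called higher was il13ra1, with 26 and 17 counts against 319 and 777 (adjusted p = 0.0277). Of the 18, 9 lay below both controls and 5 above, where 22.8% and 27.2% of all genes did.

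Immediate-early genes, which receptor engagement induces, had a median log2 fold change of -1.26. Of 40 tested, 23 lay below both controls and 3 above, where 22.8% and 27.2% of all genes did. None of the 40 was called by edgeR, whereas DESeq2 called 11, where it called 10.7% of all genes. The median was -2.30 without tumor replicate 1, where edgeR called 6, and -0.70 without tumor replicate 2. Fosab, an AP-1 subunit, had 13587, 21227, 7966 and 4240 counts (adjusted p = 0.112), and the phosphatase dusp2 had 17476, 32974, 9386 and 673 (adjusted p = 0.218). Among NF-kB factors and inhibitors, 7 of 19 lay below and 0 above. Their median was -1.10, but 0.46 without control replicate 1. The called gene was cyldb, a deubiquitinase that restrains NF-kB, with 2161 and 945 counts against 61 and 29 (-5.39 ± 0.75, adjusted p = 0.0217).

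Single genes of several immune lists were called higher while most other members were not. Ccr6a, a chemokine receptor, had 110 and 200 counts in control thymus and 2688 and 7107 in the tumors (log2 fold change 4.65 ± 0.62, adjusted p = 0.0194). It was the 1 gene called of 19 homing and egress genes, whose median was negative (-0.83, or -0.58 with genes near 0 set at their bounds, and -0.03 without control replicate 2). Itgae.1, an integrin subunit related to the one that holds T cells in epithelium, had 397 and 351 counts against 1546 and 2985 (2.29 ± 0.43, adjusted p = 0.0437). It was the 1 gene called of 16 integrin subunits, whose median was -0.26. Without control replicate 1 and with the filter applied anew, the median of the members then tested was 1.46. Il10, an anti-inflammatory cytokine, had 4 and 6 counts in control thymus and 628 and 322 in the tumors (6.23 ± 0.67, adjusted p = 0.018), the 1 gene called of 10 interleukins tested. The receptor kinase flt3 of early blood progenitors had 49 and 15 counts against 1498 and 1469 (5.25 ± 0.98, adjusted p = 0.044). Notch3, a receptor of thymocyte development, had 4 and 1 counts against 132 and 56 (4.89 ± 0.94, adjusted p = 0.0467), the 1 gene called of 10 Notch receptors and targets. In each of these genes both tumor libraries exceeded both control libraries. Libraries other than the controls admitted il10 and notch3, so that their direction was largely fixed by the filter. The MHC class I gene mhc1laa had 85 and 45 counts in control thymus and 4258 and 4730 in the tumors (5.82 ± 0.49, adjusted p = 0.0154). Class I genes resemble each other, so that the reads assigned to it are uncertain, and none of the other 30 genes of antigen presentation tested was called.

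Of the genes that the study names as raised in its tumors, edgeR called 2 of 8 tested, both higher. DESeq2 called 4 of the 8, all higher, where it called 10.7% of all genes. The study chose this list in tumors of the same fish model, so it is not independent evidence. It selected them with single-cell RNA of double-negative cells and the active histone mark H3K27ac. For mycb and gata3 it also reported higher RNA by qRT-PCR in additional tumor samples. Bulk RNA is compared here, so neither the cells nor the measure are those of the selection. Psip1a, a chromatin-bound transcriptional coactivator, had 469 and 577 counts in control thymus and 8218 and 19584 in p53+/- tumors (log2 fold change 4.41 ± 0.53, adjusted p = 0.018). Sec22ba, a vesicle transport protein, had 86 and 183 against 1843 and 3837 (4.06 ± 0.58, adjusted p = 0.0224). Lrrn1 had 144, 13, 498 and 1024 counts and h2afx, the histone variant of DNA damage, 2751, 2213, 5575 and 7141, both without overlap. Neither was called by edgeR (adjusted p = 0.145 and 0.149), but DESeq2 called both (adjusted p = 0.0128 and 0.0379). Ncaldb, patl1 and sla2 had log2 differences of -0.09, 0.07 and -0.67 and adjusted p-values of 0.468 or more. Of the genes named as lowered, id3 is given above. Mcl1a, a survival factor of the BCL2 family, had 16967 and 28843 counts against 7829 and 3428 (log2 difference -2.34 ± 0.52). Its adjusted p was 0.0657 in edgeR and 0.00068 in DESeq2. For gata3, midn, btg1, btg2 and stk17al counts per library could not be recovered. Their authors' means over the 4 libraries were 43279, 15537, 40274, 28873 and 21247 normalized counts.

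Genes of the p53 response and of cell death showed no call. None of 23 p53 regulators and targets passed the test in edgeR, and DESeq2 called 3, where it called 10.7% of all genes. Of these 23, 5 lay below both controls and 1 above, where 22.8% and 27.2% of all genes did. Their median log2 fold change was -0.51, or -0.12 without control replicate 1. Bbc3, the p53 target that encodes the death activator Puma, had 313 and 179 counts in control thymus and 52 and 19 in the tumors (-3.07 ± 0.65, adjusted p = 0.057). Cdkn1a, the p53 target that halts the cell cycle, had 209, 75, 40 and 42 (adjusted p = 0.147), and mdm2, which marks p53 for destruction, had 37, 27, 40 and 67 (adjusted p = 0.777). In the BCL2 family, 10 of 19 genes lay below both controls and 2 above, with a median of -1.35, and edgeR called 0 and DESeq2 called 5, all lower. The median was -0.37 without control replicate 1 and -0.80 without tumor replicate 2. Of 42 genes of DNA damage checkpoint and repair, 1 was called, where 2.44% of all genes were. In this list 15 genes lay below both controls and 5 above, with a median of -0.36. The called gene, which rose, was xpa, a nucleotide excision repair factor, with 108 and 40 counts against 1546 and 764 (3.68 ± 0.66, adjusted p = 0.0394).

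Among housekeeping and growth functions no gene of the lists below was called by edgeR. The medians of oxidative phosphorylation, ribosomal proteins and DNA replication changed sign when 1 control library was left out. Of 49 proteasome subunits, 24 lay above both control libraries and 3 below, where 27.2% and 22.8% of all genes did, and their median log2 fold change was 0.51, or 0.18 without control replicate 1 and 0.89 without control replicate 2. The aminoacyl-tRNA synthetases had 9 of 18 above and 2 below, with a median of 0.46, or 0.16 without tumor replicate 2. Nuclear genes of oxidative phosphorylation, with 25 of 86 above and 4 below, had a median of 0.33 that became -0.08 without control replicate 1 and 0.84 without control replicate 2. Cytosolic ribosomal proteins, with 3 of 65 above and 15 below and with 15 further members whose counts could not be recovered, had a median of -0.64 that became -1.25 and 0.22 in the same cases. DNA replication genes had 2 of 48 above and 11 below, the latter a share like that of all genes, and a median of -0.39 that was -0.59 without control replicate 1 and 0.14 without control replicate 2. Genes of mitosis and cell-cycle control had 4 of 48 above, 19 below and a median of -0.38, which ranged from -0.37 to -0.27 as 1 library was left out. EdgeR called 0 genes in each of these 6 lists, and DESeq2 called 0, 0, 5, 3, 3 and 2 in the order given.

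In glycolysis 13 of 32 genes lay above both controls and 5 below, where 27.2% and 22.8% of all genes did. The median was 0.33, or 0.19 without tumor replicate 1 and 0.93 without control replicate 1. Pgk1, phosphoglycerate kinase, had 2687 and 2765 counts in control thymus and 8318 and 10070 in the tumors (log2 difference 1.44 ± 0.34), and aldoaa, an aldolase, had 5245 and 7691 against 19615 and 20033 (1.29 ± 0.37). Neither passed the test (adjusted p = 0.078 and 0.119). Among 20 hypoxia-response genes outside glycolysis, 11 lay above and 1 below, where 27.2% and 22.8% of all genes did. The median was 1.18, or 1.00 with genes near 0 set at their bounds. Of the 20, 4 had 3 counts or fewer in each control library. Libraries other than the controls admitted these 4, so that their direction was largely fixed by the filter. A further 9 members had too few counts to be tested. Egln1b, an oxygen-sensing hydroxylase, had 357 and 476 counts against 844 and 1428 (adjusted p = 0.192), and hif1ab, a subunit of the oxygen-regulated factor itself, had 18289, 5025, 9141 and 6498, with overlapping groups (adjusted p = 0.454). EdgeR called 0 genes in either list and DESeq2 called 6 and 5.

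**Figure D3:**
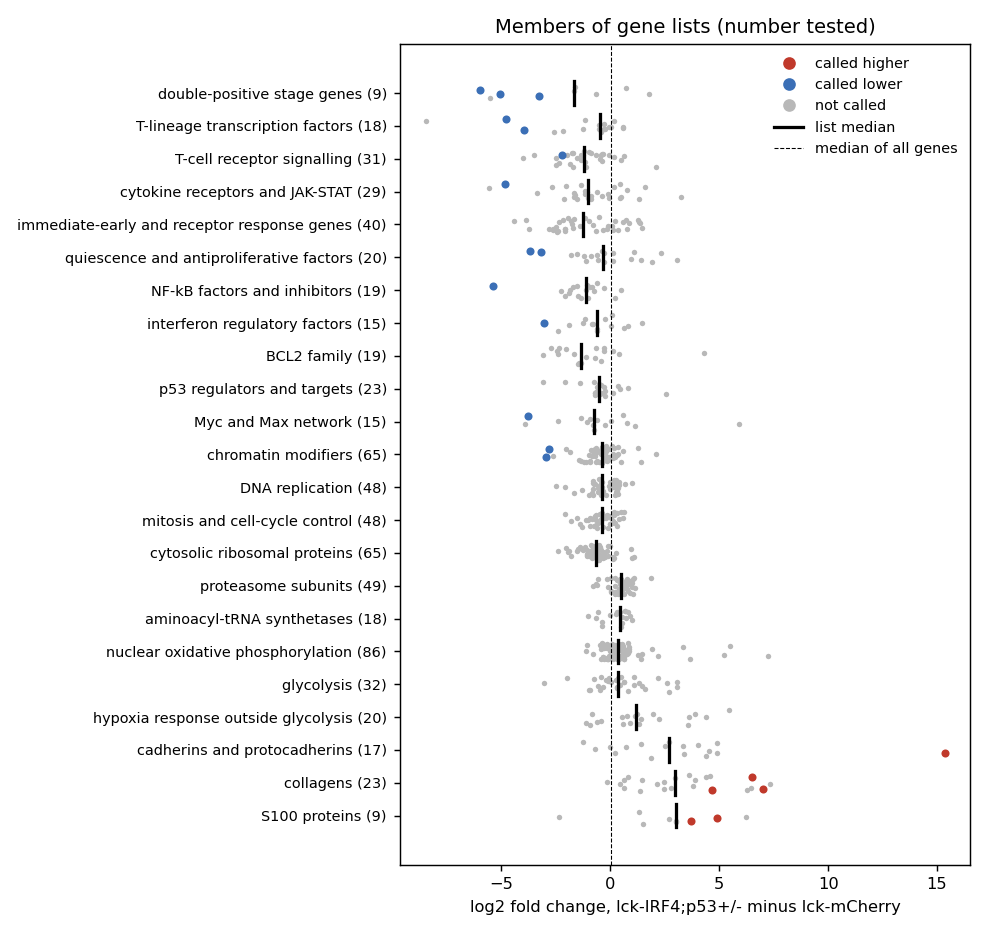
Log2 fold change of each tested member of 23 gene lists, with the number tested in brackets, red and blue points for genes called higher and lower, a black bar at the list median and a dashed line at the median of all genes. Lists of receptor and cytokine signalling sit left of the line and the hypoxia list right of it. The medians of hypoxia genes (20 of 29 members tested), collagens (23 of 56), S100 proteins (9 of 17) and cadherins (17 of 94) cover only members that passed the filter on low counts.

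The largest changes were genes present in 1 group and absent or nearly so in the other. Pcdh12, a protocadherin adhesion gene, had 0 counts in both control libraries and 7731 and 3582 in p53+/- tumors, at least 1527-fold higher. Trpc4a, a cation channel gene, had 0 against 563 and 1701, at least 303-fold higher. Lrp1ba and lrp1bb, endocytic receptors of the LDL receptor family, had 2 and 0 counts against 2776 and 883 (at least 495-fold higher) and 0 against 79 and 90 (at least 22.7-fold). A second gene under the symbol lrp1ba had 0, 0, 8 and 3 counts and was not called. The jacalin-like lectin genes jac2 and jac3 had 3 and 4 counts against 3018 and 1922, and 0 against 175 and 102. Cacna1aa, a calcium channel gene, had 65 and 14 counts in control thymus and 10012 and 13709 in the tumors (log2 fold change 7.95 ± 0.88, adjusted p = 0.018). Timp2b, a metalloproteinase inhibitor, had 0 against 71 and 91. The opsin gene tmtopsb (0 against 83 and 388) and the uncharacterized zgc:101699, si:dkey-85k7.7, si:dkeyp-122a9.2 and BX088587.1 were also among the 15 largest increases, as were CR933791.2 and gngt1. The adjusted p of these genes lay between 0.0154 and 0.0493. Apart from cacna1aa, libraries other than the controls admitted them, so that the filter largely fixed their direction.

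The 15 largest decreases likewise ran down to 0. Libraries other than the p53+/- tumors admitted these 15 genes, so that the filter largely fixed their direction. CR933791.1 had 998 and 340 counts in control thymus and 0 in both tumors (at least 271-fold lower), and CR933791.2, named for the same clone, had 0 in both controls and 164 and 291 in the tumors. Ggt1l2.2, a gamma-glutamyltransferase-like gene, had 265 and 368 counts against 0 (at least 132-fold lower). SMIM30, a small membrane protein gene, had 500 and 430 against 0 and 1 (at least 191-fold lower). Slc10a1, a bile acid transporter gene, had 188 and 118 against 0 and 0, and dgkaa, a diacylglycerol kinase of the kind that dampens T-cell receptor signalling, had 76 and 165 against 0 and 0 (at least 50.6-fold lower). Tgm1l2, a transglutaminase-like gene, had 39 and 354 against 1 and 0. The others were tradv14.0 and tradv10.0.4, given above, and the uncharacterized BX324216.1, si:dkey-222h21.9, CU896691.1, si:ch211-218h8.1, CU914631.1, BX901889.1 and si:ch211-106g8.56.

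**Figure D4:**
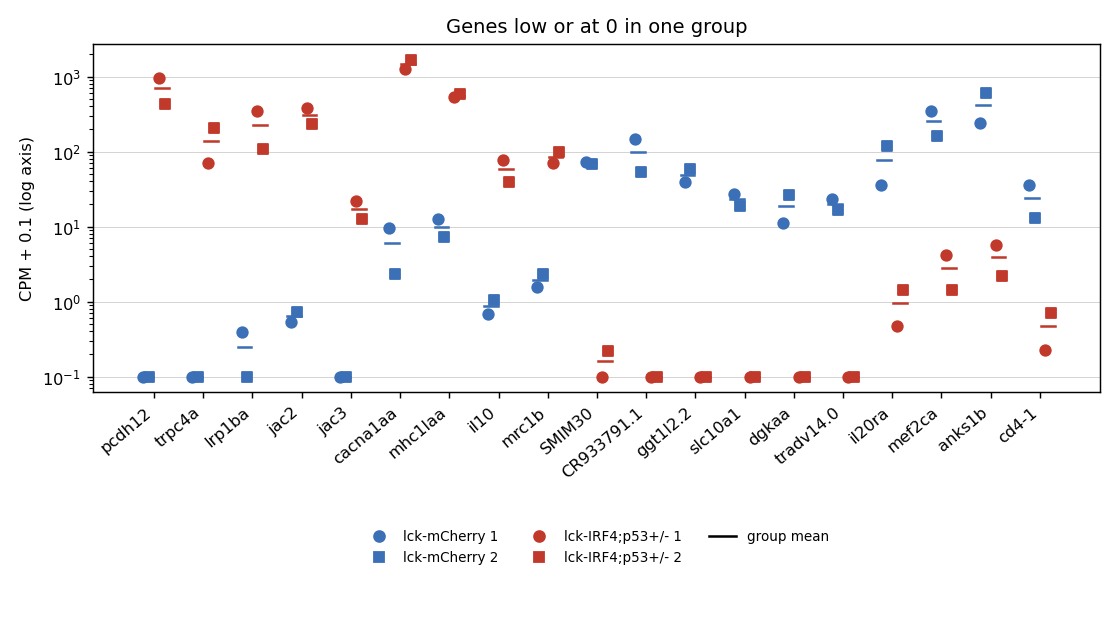
CPM plus 0.1 (log axis) of 19 called genes in each library, 9 higher and 10 lower in p53+/- tumors, with circles for replicate 1, squares for replicate 2 and a bar at the group mean. Points at 0.1 are libraries with 0 counts, and in every gene shown both tumor libraries lie on 1 side of both control libraries.

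Genes of phagocytes were among those called higher in p53+/- tumors. Over all genes 1.29% were called higher. All 7 granulocyte markers tested lay above both control libraries, where 27.2% of all genes did. Of the 7, 2 were called: lyz, the lysozyme of granulocytes, with 0 and 1 counts against 38 and 88 (at least 16.9-fold higher), and cpa5, a carboxypeptidase, with 5 and 14 against 213 and 606 (log2 fold change 5.08 ± 0.97, adjusted p = 0.0466). Summed, the granulocyte markers had 4.39 and 5.10 CPM in control thymus and 83.6 and 264 CPM in the tumors. Neither call held with the replicate block or without tumor replicate 2, and the defining markers mpx and npsn were at 0 in both controls. Of the 7 granulocyte markers, 3 had 3 counts or fewer in each control library. At least these were admitted by libraries other than the controls, so that their direction was largely fixed by the filter. Of 6 macrophage markers tested, 5 lay above and 3 were called, 0 of them without tumor replicate 2. Marco, a scavenger receptor, had 86 and 216 counts against 1190 and 3710 (3.68 ± 0.71, adjusted p = 0.0469), and the complement genes c1qb and c1qc had 29 and 58 against 545 and 713, and 20 and 8 against 217 and 284. Their sum was 26.9 and 50.6 CPM in the controls and 264 and 602 CPM in the tumors. In a wider set of 20 scavenger, lectin and lysosomal phagocyte genes, put together after values had been seen, 8 were called, all higher, and 4 without tumor replicate 2. Because this set was chosen from seen values, its number of calls is no separate result. Among its called genes, the mannose receptors mrc1a and mrc1b had 18 and 2 counts against 559 and 266, and 10 and 14 against 559 and 816. Grn1, a granulin gene, had 33 and 50 against 1335 and 1861 (4.94 ± 0.74, adjusted p = 0.0264). The chemokine ccl34a.4 had 18 and 71 against 1890 and 1083 (4.72 ± 0.80, adjusted p = 0.0361).

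The rod photoreceptor genes gnat1 and gngt1 were also higher. Gnat1, the rod transducin alpha subunit, had 10 and 1 against 321 and 461 (log2 fold change 5.84 ± 0.93, adjusted p = 0.0306), and gngt1, the gamma subunit, 0 against 53 and 93 (at least 19.6-fold higher). The photoreceptor markers opn1sw1 and pde6a were at 0 in both controls. Opn1sw1 had 22 and 23 counts in the tumors and was not called (adjusted p = 0.085). Libraries other than the controls admitted gnat1, gngt1 and opn1sw1, so that their direction was largely fixed by the filter. The 3 lens markers stayed at or under 1.62 CPM in every library.

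Collagens were also among the genes called higher, as 1.29% of all genes were. Of 56 collagen genes 23 had counts enough to be tested, 7 of these with 3 counts or fewer in each control library. At least these 7 were admitted by libraries other than the controls, so that their direction was largely fixed by the filter. The filter asks for more than 3 counts, so members with slightly more in the controls, such as col1a2, can depend on other libraries too. Of the 23, 18 lay above both controls and 0 below, where 27.2% and 22.8% of all genes did, and 3 were called. Col1a2, a fibrillar collagen chain, had 5 and 9 counts against 102 and 354 (log2 fold change 4.68 ± 0.90, adjusted p = 0.0468), col5a2a had 0 and 2 against 86 and 165, and col15a1b had 0 against 13 and 22. The list's median was 2.95, or 2.16 with genes near 0 set at their bounds. Krt8, a keratin of simple epithelia, had 195 and 126 counts in control thymus and 732 and 931 in the tumors (2.07 ± 0.41, adjusted p = 0.0482), the 1 gene called of 25 keratins and claudins, of which 14 lay above both controls and 4 below. Of 9 S100 proteins tested s100a10b and icn were called, with 3 and 12 against 243 and 324 and with 22 and 59 against 642 and 673 counts, and of 10 galectin genes, 4 of them with negative values, lgals2a and lgals3bpb were, with 33 and 39 against 227 and 556 and with 50 and 26 against 455 and 764. The stroma markers summed to 4.54 and 10.8 CPM in the controls and 25.8 and 93.6 CPM in the tumors, and the epithelial ones, of which none was called by edgeR and DESeq2 called 2, to 40.3 and 45.5 against 158 and 275 CPM. With the replicate block 1 collagen, 1 S100 protein and 0 keratins or claudins were called, and without tumor replicate 2 the count was 0 in each of these lists.

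Not every marker of other cells was higher. Erythrocyte markers had 247 and 549 CPM in control thymus and 1601 and 174 CPM in the tumors, B-cell markers 335 and 157 against 265 and 157 CPM, and endothelial markers 7.03 and 8.93 against 8.23 and 15.4 CPM. Thymic epithelial markers stayed between 2.34 and 12.8 CPM in the 4 libraries, with foxn1 and psmb11a at 0 in both tumors. Neuronal markers summed to 273 and 224 counts against 82 and 32, and 0 of 3 tested were called (DESeq2 called 1). The part of granulocyte, macrophage and stroma markers, which lay higher in both tumors, in the other comparisons was not tested.

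**Figure D5:**
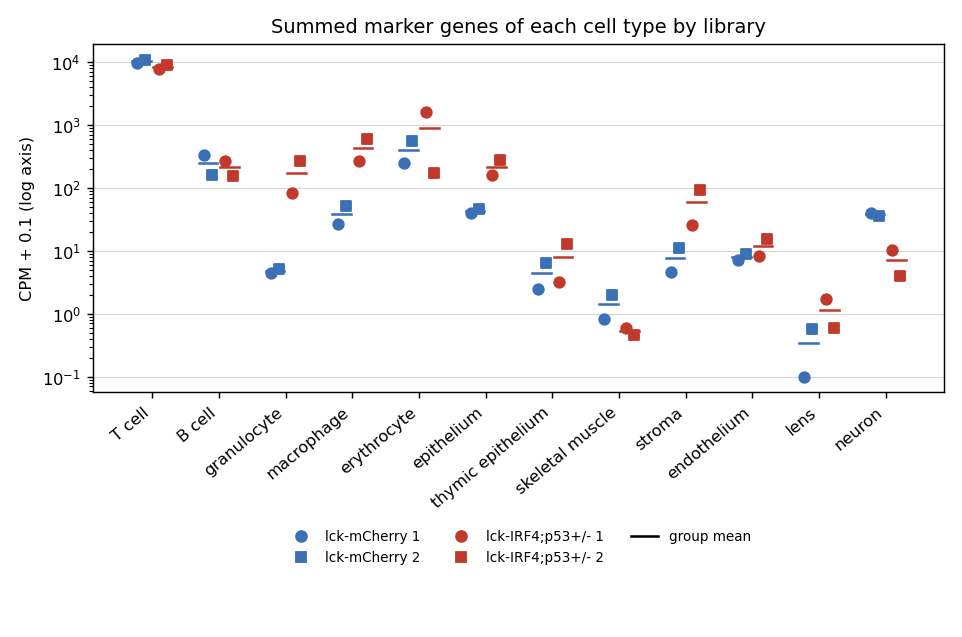
Summed CPM plus 0.1 (log axis) of the marker genes of 12 cell types in each library, with circles for replicate 1, squares for replicate 2 and a bar at the group mean. T-cell markers lie between 7637 and 10801 CPM in the 4 libraries, and granulocyte, macrophage, epithelium and stroma markers lie higher in both p53+/- tumors than in both controls.

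Of 18 tested genes of actin bundling and crosslinking, a set put together after values had been seen, 4 were called, all lower (0 without tumor replicate 2), while 10 lay below both controls and 4 above. Over all genes 1.15% were called lower, 22.8% lay below both controls and 27.2% above. Because the set was chosen from seen values, its number of calls is no separate result. It also holds a myosin heavy chain, which is not itself a bundling or crosslinking protein. Myh11a, a myosin heavy chain, had 12756 and 11462 counts in control thymus and 1666 and 2000 in the tumors (log2 fold change -3.03 ± 0.41, adjusted p = 0.0194). Flna, the actin crosslinker filamin, had 3426 and 3346 against 880 and 552 (-2.55 ± 0.43, adjusted p = 0.0356). Fscn1a, a bundling protein, had 1200 and 1222 against 144 and 289, and the formin fmnl3 had 528 and 183 against 52 and 51. In each of these genes both tumor libraries lay below both control libraries.

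Counts per transcript, which the authors deposited for each library without gene names, gave a similar number of calls. Of 14603 transcripts tested, 292 (2.00%) were called, 151 higher (1.03%) and 141 lower (0.966%). In total the controls held 11008958 and 12386720 transcript counts and the tumors 11657152 and 12655373. Without either control library 0 transcripts were called, at an unadjusted p under 0.05 for 2833 and 2914, and DESeq2 called 1537.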

How the data were processed

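RNA of 6 libraries was analysed, of which 4 are compared here. The authors deposited whole-number counts per Ensembl transcript for each library and 2 gene tables made with DESeq2. In these tables the mean of normalized counts (signal) over 4 libraries was computed by the authors, and their fold changes and p-values were not used. The submitters' processing notes name STAR 2.5.2a, featureCounts 1.6.1, DESeq2 1.12.4 and GRCz11, and reads were made from strand-specific libraries.

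Since transcripts carry no gene names, counts per gene and library were recovered from the authors' means, which are printed to 15 digits. The authors' size factors were read from genes with a single read, and each gene's 6 whole counts were solved from both of its means. Of 23228 genes with a mean above 0, 23150 (99.7%) had exactly 1 solution, 0 had none and 78 had several. Those 78, all with a mean of 12780 or more and together 38.2% of the authors' normalized counts, were left out. On simulated data 1500 of 1500 genes were recovered exactly, and 0 of 1156 means altered to fit no counts found a solution. Replicate numbers were set by matching: 162 transcripts equalled a gene mean with the numbers used and at most 17 with any other. This replaced a tie of transcripts to genes.

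Gene counts were tested with edgeR 4.0.16 (R 4.3.3; quasi-likelihood test, TMM scaling to CPM, filterByExpr, 1 fit over 6 libraries without a replicate block, Benjamini-Hochberg adjusted p under 0.05), with DESeq2 1.42.0 as an alternative. The biological coefficient of variation was 0.535. The log2 fold change is edgeR's, and its standard error follows from the F statistic. An exact permutation test of 2 against 2 libraries cannot go below 0.333. In simulated gene counts for this comparison (13422 genes tested, 200 of them changed), the test found 36 of 66 genes with a log2 change of 4, 5 of 67 with a change of 2 and 0 of 67 with a change of 1, beside 3 genes called falsely. Replicates differed by far more than counting noise (57.5 to 132 in chi-square per gene), so no library was a copy.

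The members and the 62 gene lists were chosen with earlier results of these data known, and 17 further families after values had been seen. Lists are described by counts and medians. Named are the 15 genes with the largest change in each direction among called genes with separate groups and a mean of at least 10 counts, up to 4 called members of each list described (or, with fewer than 2 called, its most abundant members), genes the study names, and further genes chosen after their values were seen (among them cacna1aa, cd4-2.2, rag1, dntt, bbc3, cdkn1a, mdm2, flt3, mef2b and the members of the 17 families). Some results that these rules cover are not reported here.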

Additional observations from a re-analysis of the deposited data

How the results depend on the processing

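The 345 genes called kept their direction in every alternative run, but the number called depended on the test, the filter and the libraries. Their separate groups largely fixed the direction in advance when a library was left out, so it is no further evidence. DESeq2 called 1514 genes, 1537 transcripts and 180 members of the gene lists, against 345, 292 and 41 in edgeR. Testing every feature with a count called 1607 genes, 1792 transcripts and 184 list members, and fitting only the 4 libraries compared called 543 transcripts. Leaving out 1 library at a time gave 0 to 389 genes, 0 to 507 transcripts and 0 to 53 list members. The 0 arose without either lck-mCherry library, where 1 control library remains and its spread is taken from the other groups. The smallest adjusted p was then 0.0810 without replicate 1 and 0.0911 without replicate 2. Without replicate 2 of the p53+/- tumors, 120 genes, 119 transcripts and 19 list members were called. Leaving out control replicate 1 also moved the median log2 fold change of all genes from 0.02 to 0.15. The cause of these differences was not tested.

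Of the genes named, 5 changed direction when 1 library was left out, and none of them was called. The log2 fold change then ranged from -1.49 to 0.27 for hif1ab, from -0.71 to 0.73 for ncaldb, from -0.36 to 0.66 for patl1, from -1.59 to 0.29 for rag1 and from -0.54 to 4.06 for trgv1.

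Differences between replicates 1 and 2 correlated at 0.26 between control thymus and p53+/- tumors, the 2 groups compared. Between control thymus and lck-IRF4 tumors the value was 0.067, and between both tumor groups -0.0077. Whether libraries of 1 replicate number share a batch was not tested, and the main fit had no replicate block. With the replicate block 313 genes, 350 transcripts and 33 list members were called, and 269 of the 345 genes were called again. The planned restriction to genes tied to 1 set of transcripts was not run, because no transcript entered the gene counts. In simulated data edgeR called 0 of 67 genes changed by 1 on the log2 scale, and the 78 abundant genes without recovered counts were not tested.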
